A study of Rattus norvegicus with 10 samples.

Results

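The insulin-like growth factor (IGF) system was followed through 10 genes: the ligands Igf1 and Igf2, the receptors Igf1r and Igf2r, and the binding proteins Igfbp2, Igfbp3, Igfbp4, Igfbp5, Igfbp6 and Igfbp7. The 10 genes were chosen by family name with results of the same contrast already known, above all the lower signal of an Igfbp5 probe set in dehydrated rats. The members' own differences are therefore a description, and their calls support nothing further. All probe sets whose platform annotation gave exactly one of these symbols were taken, which gave 23 of the 31042 non-control probe sets on the array. A probe set is a group of short array probes read together as 1 signal for a transcript.

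Total RNA was pooled from the paraventricular nucleus, a hypothalamic cell group that makes vasopressin and oxytocin, of male Sprague Dawley rats aged 10 to 12 weeks. Each of the 10 pools combined tissue of 5 animals and was read on its own Affymetrix Rat Genome 230 2.0 array. The dehydrated group comprised 5 pools of animals after 3 days of dehydration, and the control group 5 pools of euhydrated animals. The design text speaks of the supraoptic nucleus where title and sample labels give the paraventricular nucleus, and the latter were followed. Different animals made up each pool, so that variation between arrays is partly biological and partly technical. Because the samples were bulk tissue, fewer cells of a type and less RNA per cell cannot be told apart.

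IGF-1 and IGF-2 are secreted peptides that act mainly through the IGF-1 receptor, a tyrosine kinase that signals through the PI3K, AKT and mTOR kinases and through the Ras and ERK kinases. Igf2r encodes the mannose 6-phosphate receptor, which takes up IGF-2 for degradation. The binding proteins hold IGFs in the extracellular space, prolong or block their action, and release them when proteases cut them. In brain, IGF-1 is known from neurons and microglia, IGF-2 from the meninges and choroid plexus, and IGFBP-5 and IGFBP-2 from neurons, glia and vessel walls.

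Array medians ran from 36.4 to 39.1 and pairwise correlations of the arrays from 0.959 to 0.978. Control replicate 5 stood apart from the other arrays on the first principal component, at 37.2 against -14.4 to 3.69, and had the lowest array weight, 0.385. Of the markers that define the nucleus, vasopressin ran from 2853 to 5698, oxytocin from 3631 to 5499 and the transcription factor Sim1 from 39.2 to 101.6 over the 10 arrays. The probe sets of Otp and Pou3f2, also made by neurons of this nucleus, read at most 18.8 and 1.0 and lay below the level required for testing.

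A mean signal of 24.1 over all 10 arrays was required for testing, and 15 probe sets of all 10 genes reached it, while 8 did not. Those 8 had means from 1.27 to 12.5 and are given as values. Of the 15, 1 was called lower in dehydrated pools, 0 higher and 14 not, where called means a Benjamini-Hochberg adjusted p under 0.05 in limma over all 18629 tested probe sets. Over all tested probe sets 0.58% were called, and 0.183% were called lower. The groups did not overlap for 2 of the 15, against 3.36% over all tested, and 4 had an unadjusted p under 0.05, where the share over all tested was 12.7%. The median log2 difference, dehydrated minus control, was -0.012 over the 15 and -0.005 over all tested, and 6 of the 15 were positive and 9 negative. Since the family was taken up because of this contrast, nothing is read from these counts.

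**Figure D1:**
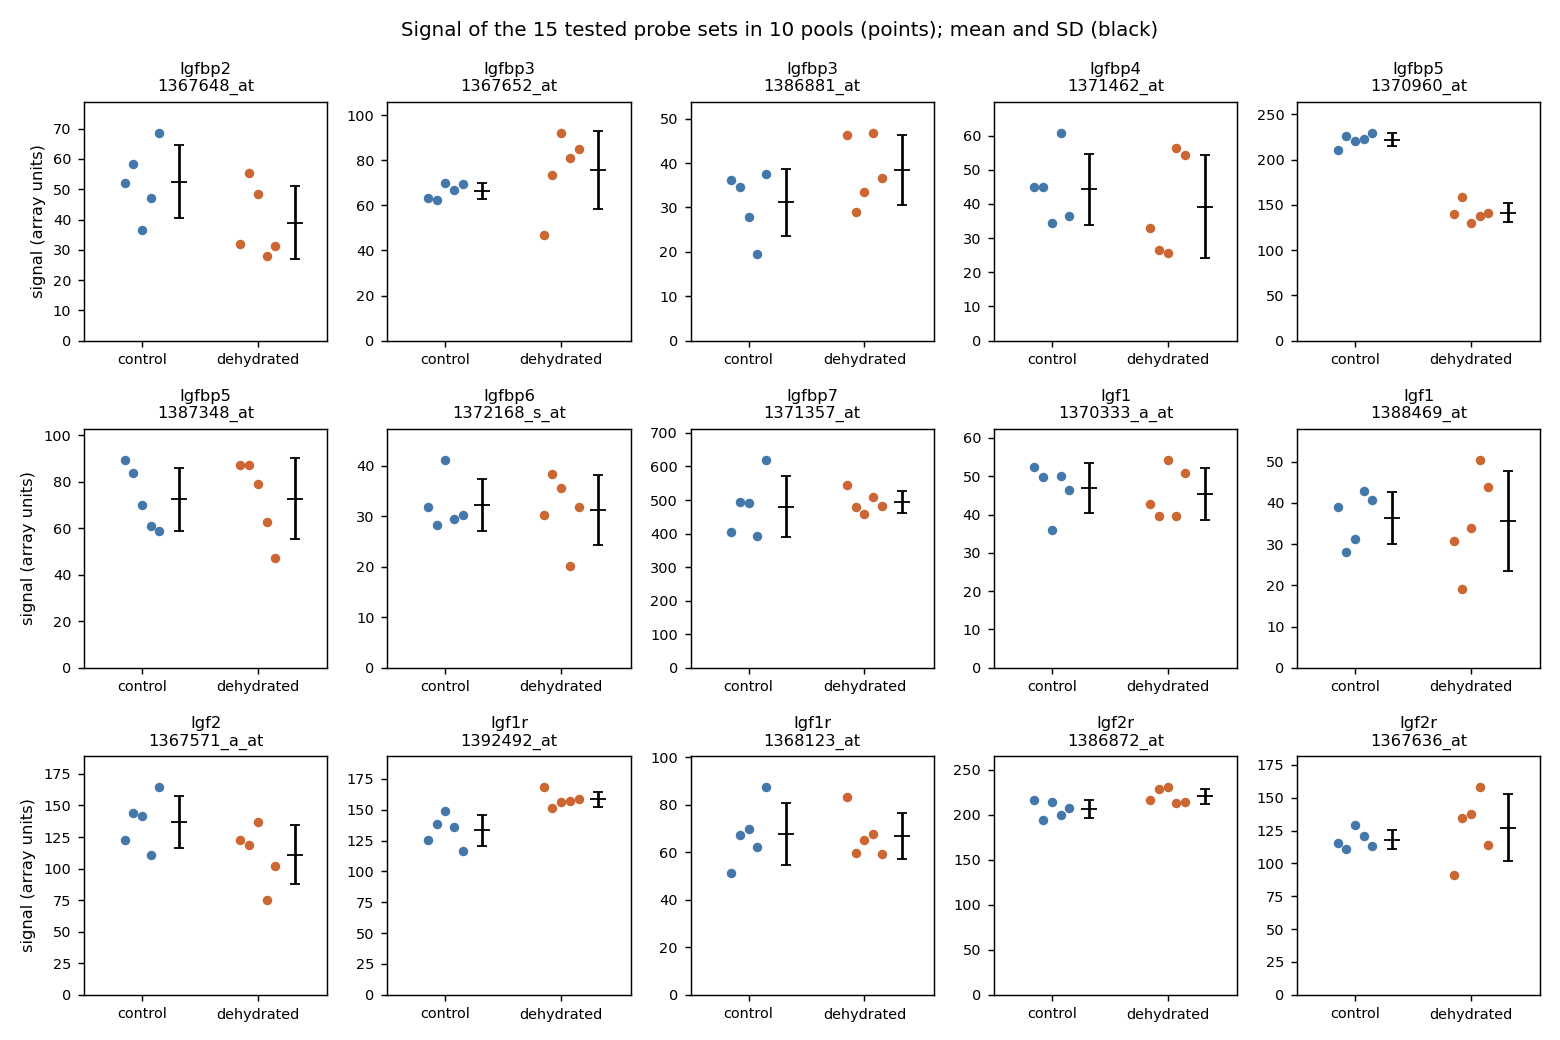
Signals (array units, linear axes from 0) of the 15 tested probe sets in 5 control pools (blue) and 5 dehydrated pools (orange), with group mean and SD in black. The Igfbp5 probe set 1370960_at lies at 130.1 to 158.1 in dehydrated and 210.3 to 229.4 in control pools, and Igf1r 1392492_at is the other one whose groups do not overlap.

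Among the binding proteins, Igfbp5 was the gene with a call, and it rested on 1 of its 5 probe sets. Igfbp5 encodes a binding protein that also attaches to the extracellular matrix. Probe set 1370960_at read 139.5, 158.1, 130.1, 137.7 and 141.4 in the dehydrated pools and 210.3, 226.0, 220.9, 223.1 and 229.4 in the control pools. Every dehydrated pool lay below every control pool, with 52.2 units between the highest dehydrated and the lowest control value. The mean was 141 ± 10.3 in dehydrated and 222 ± 7.25 in control pools (SD, n = 5 each), so the dehydrated mean was 63.7% of the control mean. On the log2(signal + 3.72) scale the difference was -0.64 ± 0.07 (standard error of the fit). The pools of a group were close to each other, with a coefficient of variation of 7.28% in dehydrated and 3.27% in control pools, where the median over all tested probe sets was 12.1%. Control replicate 5, which stood apart over the whole array, was the highest control here, and without it the log2 difference was -0.63.

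The 250 bases before the annotated start of Igfbp5 are shown because this gene held the call among the members. They are taken from RefSeq's annotation of GRCr8 at chr9:81914188-81914437 on the minus strand, 5′ to 3′ on that strand. Matches were searched on both strands for the TATA box with the letters TATAAA, the CCAAT box with its name as letters, the GC box with the letters GGGCGG, the E-box forms with the letters CACGTG as the first and CAGCTG as the second form, and the short cAMP response motif with the letters TGACG. Capitals would mark a match.
Igfbp5: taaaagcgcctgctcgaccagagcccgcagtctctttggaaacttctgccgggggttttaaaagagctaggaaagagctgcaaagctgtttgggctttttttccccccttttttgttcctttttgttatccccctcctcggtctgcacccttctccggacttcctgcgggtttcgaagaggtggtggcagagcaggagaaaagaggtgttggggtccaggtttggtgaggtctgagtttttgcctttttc
This window held no match. Among 33469 upstream windows of that length, the CCAAT box was in 34.0%, the GC box in 30.5%, the cAMP response motif in 18.2%, the TATA box in 12.9%, the second E-box form in 12.0% and the first in 5.59%.

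The other Igfbp5 probe sets did not show this difference. Probe set 1387348_at read 87.2, 87.3, 78.8, 62.7 and 47.1 in dehydrated and 89.2, 83.5, 70.0, 60.8 and 58.7 in control pools, so that the groups lay over each other. Its log2 difference was -0.01 ± 0.16. The log2 ratio of 1370960_at to 1387348_at was 0.96 ± 0.35 in dehydrated and 1.58 ± 0.29 in control pools (SD, n = 5 each), with group ranges that overlapped, and over the 10 arrays both had an r of 0.02. When both were averaged into 1 value for the gene, Igfbp5 had a log2 difference of -0.33 and was not called (limma adjusted p = 0.155 over all genes). The remaining 3 were dim. Probe set 1387347_at, built on the RefSeq transcript of the gene, read 0.9 to 1.9 on all arrays. Probe sets 1397830_at and 1396152_s_at are built on the same expressed sequence tag and read from 1.9 to 28.8 and from 0.5 to 10.3, moving together over the 10 arrays (r = 0.88). Their means were higher in dehydrated pools, with overlapping groups. They were 16.0 ± 10.5 against 9.02 ± 9.30 for 1397830_at and 5.20 ± 4.06 against 2.90 ± 3.83 for 1396152_s_at (SD, n = 5 each). Where along the Igfbp5 transcript each probe set lies was not analysed here.

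**Figure D2:**
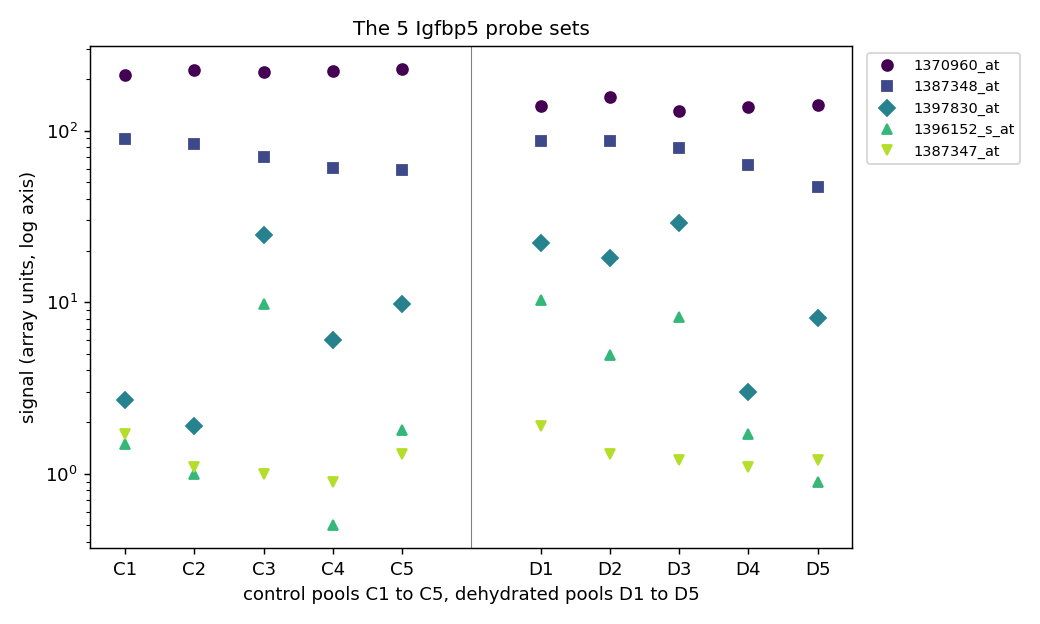
Signal (array units, log axis) of the 5 Igfbp5 probe sets in control pools C1 to C5 and dehydrated pools D1 to D5. Only 1370960_at separates the groups, at 210.3 to 229.4 and 130.1 to 158.1, while 1387348_at overlaps and the other 3 read at most 28.8.

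Igfbp2 lies next to Igfbp5 in the rat genome (RefSeq annotation of GRCr8) and encodes a binding protein abundant in cerebrospinal fluid. Its probe set read 31.9, 55.4, 48.3, 28.1 and 31.2 in dehydrated and 52.0, 58.3, 36.6, 47.1 and 68.6 in control pools. Of the dehydrated pools, 3 lay below all controls and 2 within the control range. The log2 difference was -0.41 ± 0.19 and was not called. Over the 10 arrays the log2 signals of Igfbp2 and Igfbp5 1370960_at had a Pearson r of 0.60, and their deviations from the group means had an r of 0.38.

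The other binding proteins had overlapping groups. Igfbp3, which carries most IGF in blood, had 46.9 to 92.2 in dehydrated and 62.6 to 70.1 in control pools on probe set 1367652_at, the spread being wider in dehydrated pools (coefficients of variation 23.1% and 5.15%). Its log2 difference was 0.15 ± 0.14, and that of the second Igfbp3 probe set, 1386881_at, was 0.28 ± 0.18. With single arrays left out the differences ran from 0.07 (without dehydrated replicate 3) to 0.30 (without dehydrated replicate 1) and from 0.14 (without control replicate 4) to 0.37 (without dehydrated replicate 2). Igfbp4, a binding protein mostly known to inhibit IGF action, read 33.1, 26.5, 25.6, 56.5 and 54.4 in dehydrated and 44.9, 45.0, 34.4, 60.8 and 36.6 in control pools, with a difference of -0.21 ± 0.21. Of the dehydrated pools of Igfbp4, 3 were low and 2 were high, and the difference ran from -0.35 without dehydrated replicate 4 to -0.09 without dehydrated replicate 3. Igfbp6, which prefers IGF-2, differed by -0.05 ± 0.17 on 1372168_s_at, and its other probe set read 0.6 to 11.2. Igfbp7, a low-affinity relative made by vessels, differed by 0.06 ± 0.10, with 459.5 to 544.3 in dehydrated and 391.5 to 618.9 in control pools. Its signal followed the summed endothelial markers over the 10 arrays (r = 0.81, and 0.87 for deviations from the group means).

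Neither ligand was called, and the groups overlapped on all of their probe sets. Igf2 probe set 1367571_a_at read 122.3, 118.8, 136.8, 75.5 and 102.4 in dehydrated and 122.7, 144.3, 141.5, 110.6 and 164.4 in control pools. The groups overlapped, dehydrated replicate 4 was the lowest array and control replicate 5 the highest. The log2 difference was -0.30 ± 0.14, and it was -0.18 without dehydrated replicate 4. The other 3 Igf2 probe sets read at most 13.3 on any array. Igf1 had 39.6 to 54.2 in dehydrated and 35.9 to 52.5 in control pools on 1370333_a_at, a difference of -0.04 ± 0.14. On its second tested probe set, 1388469_at, Igf1 differed by -0.08 ± 0.21 and by 0.11 without dehydrated replicate 2. Igf2 and Igfbp2 varied together over the 10 arrays (r = 0.72, and 0.60 for deviations from the group means), whereas Igf2 and Igfbp4 varied oppositely (r = -0.55, and -0.85 for deviations from the group means). Both were taken from the many pairs of member genes and are given as descriptions.

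For the receptors, 1 Igf1r probe set had groups that did not overlap. Igf1r 1392492_at read 168.1, 151.6, 155.9, 157.3 and 158.4 in dehydrated and 125.8, 138.4, 149.2, 135.7 and 116.7 in control pools. All dehydrated values lay above all control values, by 2.4 units at the narrowest point. The mean was 158 ± 6.08 against 133 ± 12.4 (SD, n = 5 each) and the log2 difference 0.25 ± 0.08, which was not called. Without control replicate 5, the lowest control here, it was 0.20. The second Igf1r probe set, 1368123_at, read 59.2 to 83.1 in dehydrated and 51.4 to 87.3 in control pools, and the r of both probe sets over the 10 arrays was 0.00. For Igf2r the differences were 0.10 ± 0.07 on 1386872_at and 0.08 ± 0.12 on 1367636_at. The latter was 0.00 without dehydrated replicate 4 and 0.19 without dehydrated replicate 1. Signals of 1386872_at ran from 213.6 to 230.5 in dehydrated and 194.2 to 216.5 in control pools, with 3 dehydrated pools inside the control range.

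**Figure D3:**
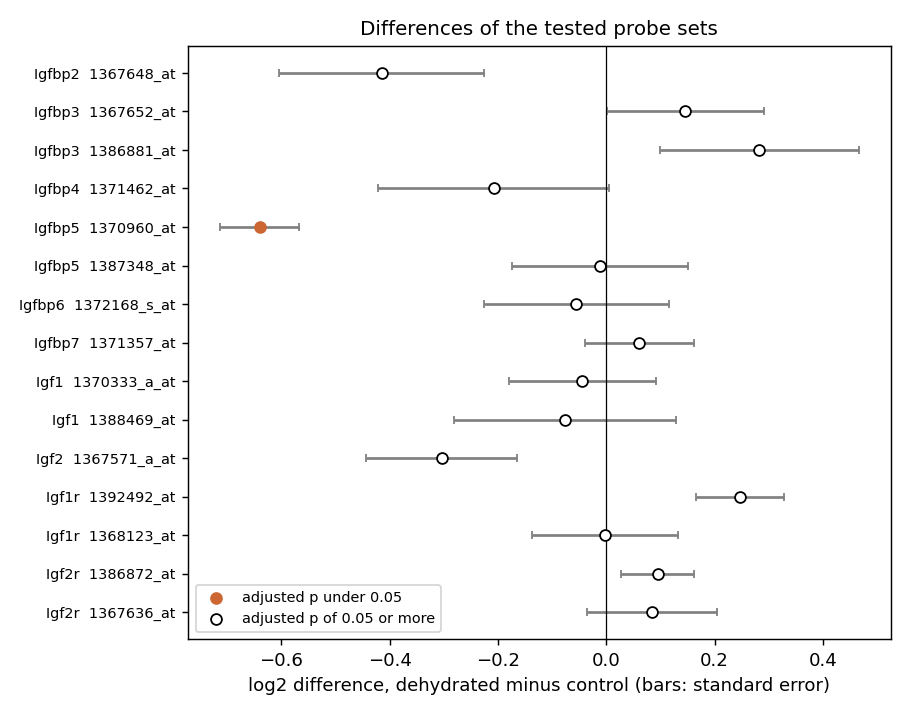
Log2 differences, dehydrated minus control, of the 15 tested probe sets with the standard error of the limma fit as bars. Igfbp5 1370960_at at -0.64 is the filled point, which marks an adjusted p under 0.05, and the other 14 lie between -0.41 and 0.28.

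Genes that act around these members were taken from 10 lists by function: proteases, carriers, matrix partners, the growth hormone axis and the signalling arms. Without the members, 139 probe sets of 101 genes were tested. Of these 1 was called, which was higher in dehydrated pools, a share of 0.719% beside the 0.58% of all tested. Groups did not overlap for 6, or 4.32%, and the median log2 difference was 0.017. Of the 139, 7 had a mean below the level for testing in 1 of the groups and entered through the other, and 2 of these were among the 6.

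The called gene was Htra1, a secreted serine protease with an IGFBP-like domain that is known to cut IGFBP-5. Its probe set read 415.3, 350.1, 432.7, 404.7 and 355.6 in dehydrated and 281.4, 261.9, 295.6, 255.6 and 273.0 in control pools. Each dehydrated pool lay above each control pool. The control mean was 274 ± 15.9 and the dehydrated mean 392 ± 36.9 (SD, n = 5 each), so Htra1 rose by 0.51 ± 0.07 on the log2 scale (limma adjusted p = 0.00381). The relation of this rise to the lower Igfbp5 signal was not tested.

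The window of the same length before the start of Htra1 is shown for comparison with that of Igfbp5, from RefSeq's annotation of GRCr8 at chr1:194927819-194928068 on the plus strand. Capitals mark matches of the same 6 motifs on either strand, and no matches overlap.
Htra1: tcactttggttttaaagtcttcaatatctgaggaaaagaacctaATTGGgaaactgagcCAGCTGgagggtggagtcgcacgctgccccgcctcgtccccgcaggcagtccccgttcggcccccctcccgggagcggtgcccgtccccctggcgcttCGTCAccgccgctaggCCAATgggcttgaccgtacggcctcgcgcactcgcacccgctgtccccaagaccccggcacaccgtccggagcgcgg
The Htra1 window held CCAAT on both strands, 77 bases before the start on the plus and 206 on the minus strand. It also held CAGCTG at 191 and TGACG on the minus strand at 93 bases. A match is a description of the letters only.

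The other proteases and carriers gave no call. Of 19 tested probe sets for 15 genes of proteases and their inhibitors, Htra1 included, 8 genes were positive and 7 negative by their brightest probe set. Among the 19, 6 had an unadjusted p under 0.05, beside 12.7% of all tested. The groups did not overlap for 2, beside 3.36%, and log2 differences ran from -0.41 to 0.51. Serpine2, a protease inhibitor of glia, differed by -0.23 ± 0.07 (adjusted p = 0.214), and Htra3, a relative of Htra1 named after its values were seen, by 0.25 ± 0.11 (adjusted p = 0.334) with groups that did not overlap. Of the other binding and carrier proteins 5 of 12 genes reached the level for testing, and Crim1 differed by 0.13 ± 0.07. Among the matrix and cell surface partners of IGFBP-5, 0 of 13 probe sets were called in limma or had an unadjusted p under 0.05, with Gpc3 at 0.21 ± 0.10 and Sdc4 at -0.16 ± 0.08.

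In the growth hormone axis 0 of 9 probe sets were called in limma, and 2 had an unadjusted p under 0.05, beside 12.7% of all tested. Somatostatin (Sst), which inhibits growth hormone release and is also on the list of parvocellular markers, had 1165 ± 275 in control and 1642 ± 330 in dehydrated pools, a log2 difference of 0.50 ± 0.14 (adjusted p = 0.133). It passed with array weights, and its adjusted p ran from 0.0462 to 0.291 over the alternatives. Jak2, the kinase of the growth hormone receptor, differed by -0.37 ± 0.17. Insulin receptor (Insr) and Ins1 differed by -0.22 ± 0.16 and 0.29 ± 0.18.

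Of the 22 probe sets for 18 genes of the mTOR arm, 0 were called in limma. Among them 6 had an unadjusted p under 0.05, beside 12.7% of all tested, and the groups did not overlap for 4, beside 3.36%. Of those 4, 2 reached the level for testing only through the dehydrated pools, and nothing about the arm is read from these counts. Eif4ebp1 and Eif4ebp2 encode translation repressors that mTOR phosphorylates. Eif4ebp1 read 85.7, 87.2, 81.7, 85.2 and 67.9 in dehydrated and 61.1, 66.2, 52.5, 57.0 and 55.2 in control pools (log2 0.46 ± 0.11, adjusted p = 0.065). Eif4ebp2 ran the other way, with 236.2, 252.5, 199.0, 202.2 and 238.3 in dehydrated and 261.0, 296.1, 305.0, 277.4 and 316.7 in control pools (log2 -0.37 ± 0.08, adjusted p = 0.0565). In both the groups did not overlap. Eif4ebp2 passed with array weights, with the stricter filter and without dehydrated replicate 2, and Eif4ebp1 with array weights and without dehydrated replicate 5, with adjusted p from 0.0362 to 0.155 over the alternatives of Eif4ebp2 and from 0.0462 to 0.151 over those of Eif4ebp1. Deptor, an mTOR inhibitor, and the S6 kinase gene Rps6kb1, both named after their values were seen, had 1 probe set each with groups apart. Their control means of 20.1 ± 6.43 and 20.2 ± 8.58 lay below the level of 24.1, and their dehydrated means of 36.7 ± 5.38 and 39.7 ± 9.72 carried them over it, so that a difference was a condition of their being tested. The log2 differences of 0.80 ± 0.20 and 0.95 ± 0.28 are given as values only. A second probe set of each differed by -0.13 and -0.07.

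The PI3K and AKT arm had 0 calls in limma among 22 probe sets. An unadjusted p under 0.05 was found for 1, beside 12.7% of all tested. This was Pik3ca, a catalytic subunit of PI3K, at -0.29 ± 0.13. Inpp5d, a lipid phosphatase of this arm, differed by -0.25 ± 0.14. The Ras and ERK arm had 0 calls among 18 and 4 with an unadjusted p under 0.05, beside the same 12.7%. Nras differed by -0.40 ± 0.14 and Spry4, an inhibitor of this arm, by 0.25 ± 0.10. The negative adaptors had 0 calls among 28 and 2 such p, again beside 12.7%. Cbl differed by 0.34 ± 0.12. Gigyf2 differed by 0.72 ± 0.32, and its control mean of 19.8 ± 9.70 also lay below the level for testing. Igf2bp2, which binds Igf2 mRNA, differed by -0.20 ± 0.22 on its probe set with the smaller p. The dehydrated mean of that probe set, 23.7 ± 8.02, lay below the level for testing, which it reached through a control mean of 27.2 ± 6.86.

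**Figure D4:**
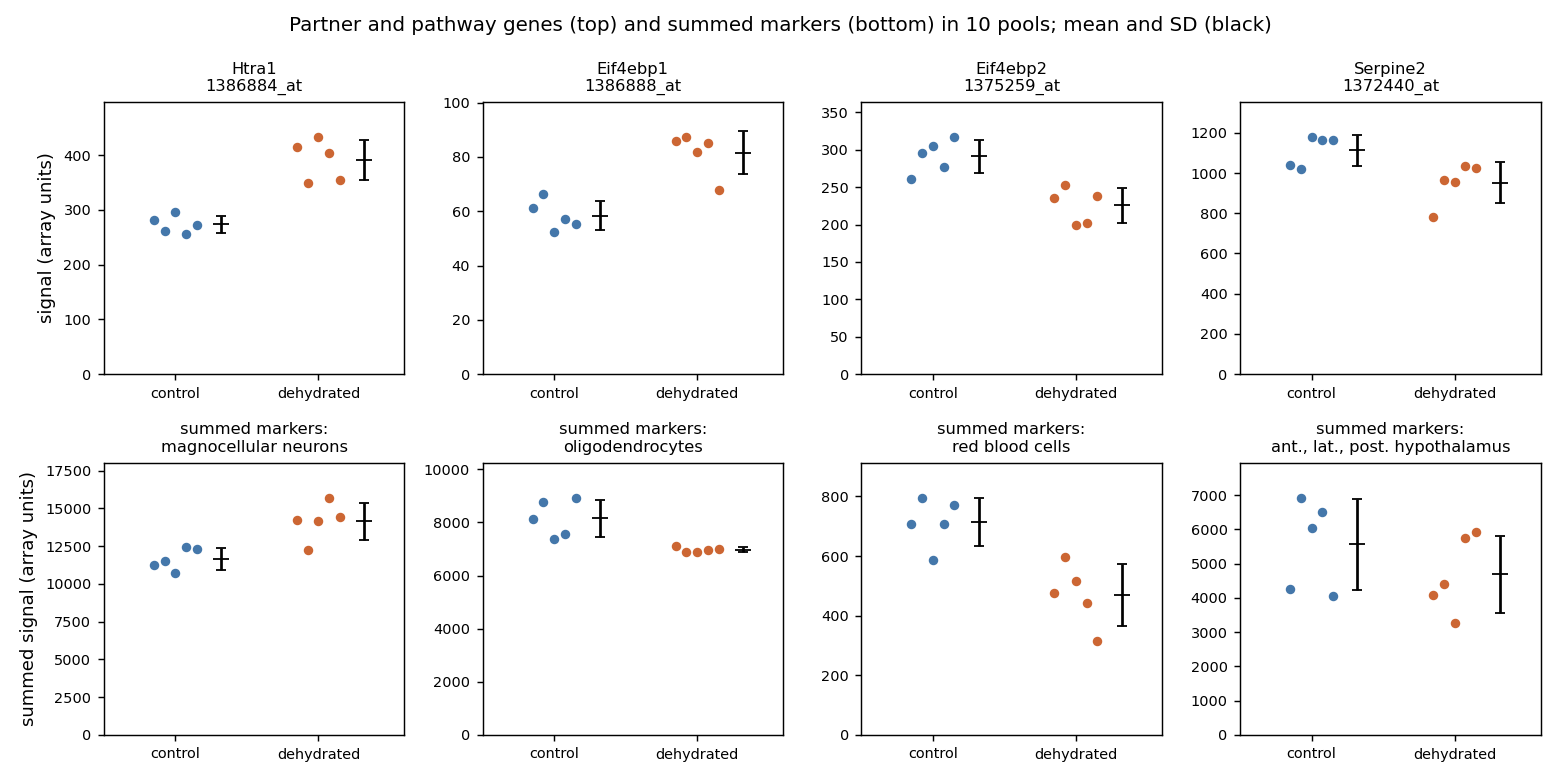
Top: signals (array units) of Htra1, Eif4ebp1, Eif4ebp2 and Serpine2 in 5 control (blue) and 5 dehydrated pools (orange). Bottom: summed signals of marker lists on the same pools. Black marks are mean and SD. Htra1 is separated at 350.1 to 432.7 against 255.6 to 295.6, and the oligodendrocyte sum at 6870 to 7107 against 7389 to 8917.

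Some marker lists moved with the groups in the same pools, and their part in the Igfbp5 and Htra1 differences was not tested. Summed signals of the 10 of 12 oligodendrocyte markers on the array were 6870 to 7107 in dehydrated and 7389 to 8917 in control pools. The ratio of means was 0.854, 10 of 10 genes were negative and 0 markers lay below the level for testing. Of their 17 probe sets 1 was called lower (Ermn, -0.63 ± 0.12, limma adjusted p = 0.0255), beside 0.183% of all tested. An unadjusted p under 0.05 was found for 11, beside 12.7% of all tested. The groups did not overlap for 3, beside 3.36%. The 4 of 9 red blood cell markers on the array, of which Slc4a1 and Ahsp were below that level, summed to 315 to 598 in dehydrated and 586 to 795 in control pools, and the haemoglobin gene Hbb fell (-0.67 ± 0.13, limma adjusted p = 0.0305). The list of 7 magnocellular markers held Avp, Oxt, Pdyn, Slc32a1, Scg2, Gal and Cck, all measured. How far each is particular to these neurons was not tested. They summed to 12234 to 15681 and 10705 to 12466, a ratio of means of 1.22. Bright genes weigh most here, and Avp and Oxt had medians of 4134 and 4448 over the 10 arrays. Of the 7 genes 5 were positive and 2 negative, with log2 differences from -0.23 to 0.81. The 1 called, beside 0.58% of all tested, was Pdyn, the precursor of dynorphin, which rose (0.81 ± 0.10, limma adjusted p = 0.000572). Of the parvocellular markers 6 were on the array, with Otp and Pou3f2 below the level for testing. These 6 summed to 2276 to 3415 and 1734 to 2549, a ratio of 1.27. Among them 4 of 4 tested genes were positive and 0 called in limma. Sst was the 1 with an unadjusted p under 0.05, beside 12.7% of all tested. Within this sum Sst, reported above with the growth hormone axis, had 1642 ± 330 in dehydrated and 1165 ± 275 in control pools. The red cell, magnocellular and parvocellular sums overlapped between the groups. Over the 10 arrays Igfbp5 1370960_at had an r of 0.81 with the oligodendrocyte sum, 0.81 with the red cell sum and -0.85 with the magnocellular sum on log2 scales. These values share the group difference, and for deviations from the group means r was 0.13, 0.31 and -0.42. For the summed markers of meninges and fibroblasts, of which 5 of 16 were below the level for testing, r was -0.26 over the 10 arrays and 0.76 around the group means, and that sum overlapped between groups at 4173 to 5139 and 3547 to 4967. The list includes Nnat and Ptgds, and the brightest genes weigh most in a sum of signals. Which genes carried this r was not tested, so it is not read as a relation to those cells. The Igf1r probe set 1392492_at had an r of -0.85 with the oligodendrocyte sum and of -0.56 around the group means. With the microglial sum the values were -0.84 and -0.69, and with the red cell sum -0.77 and -0.37. The second Igf1r probe set, 1368123_at, had 0.23 and 0.39 with the oligodendrocyte sum. No relation to 1 cell type is read from these pairs.

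The genes whose log2 signals were most like those of Igfbp5 1370960_at over the 10 arrays were Serinc5 (Pearson r = 0.973, Spearman rho = 0.915), Hhatl (0.963 and 0.903), Zcchc7 (0.962 and 0.879), Pmel (0.952 and 0.855) and Creb1 (0.947 and 0.830). A shared group difference alone brings genes into this list. Around the group means the r was 0.648 for Serinc5, 0.803 for Hhatl, 0.544 for Zcchc7, 0.715 for Pmel and 0.217 for Creb1. For Igf2 the nearest was Arhgef26 (r = 0.956, and 0.939 around the group means), for Igfbp2 Ralgdsl1 (0.931 and 0.901) and for Igf1 Brd1 (0.922 and 0.930). These are the highest correlations over all tested genes with 1 symbol on the same 10 arrays and are given as descriptions.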

How the data were processed

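Total RNA of 10 pools was measured on 1 array each. The deposited values were linear probe set intensity values which the authors produced in GCOS 1.2 (from the submitters' processing notes). The algorithm behind them is not given in the sources used here. After trimming 2% at each end the mean was 100.03 on every array, so the authors had scaled them to a common level. Sample labels gave the groups. Replicate numbers follow accession order and pair nothing. The sample titles carry running numbers that split by group, with that of control replicate 5 lying away from both runs. What these numbers stand for is not given in the labels. A batch that followed them could not be told apart from the group.

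Of 31099 probe sets, 57 controls were left out. Of the other 31042, 20826 had 1 gene symbol, 436 several and 9780 were not listed. Symbols were updated through Entrez identifiers for 20758. Signals were used as log2(signal + 3.72), the pseudocount being 0.1 of the median array median, which understates changes of dim probe sets. Probe sets at or above the 40th percentile of mean signal (24.1) were kept, and the 18629 left were compared with lmFit and eBayes (trend) (limma 3.58.1, R 4.3.3). Tests were two-sided at a Benjamini-Hochberg adjusted threshold of 0.05. The fit was tested on simulated data. Tables and figures used Python 3.11.15, pandas 2.3.3 and matplotlib 3.10.9. The number of arrays limits the precision.

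The members, lists and tests were chosen with earlier results of these data known. Named genes were all member probe sets, called probe sets and the 2 genes of smallest p in each function list, and the 5 genes of highest Pearson r with Igfbp5, Igfbp2, Igf1 and Igf2, of which the nearest is printed for the last 3. Marker sums took the brightest probe set per gene. Alternatives were other scalings, pseudocounts, filters and limma settings, array weights, each array left out, and the mean over a gene's probe sets. The lists of neurons, astrocytes, microglia, endothelium, pericytes, choroid plexus, ependyma and the neighbouring regions are given in the closing section.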

Additional observations from a re-analysis of the deposited data

Results flagged for a closer look

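A single pool stood away from the other 4 of its group, by the ratio of its gap to the whole range (critical value 0.71 for 5 pools), in 10 of 114 groups examined, where chance gives about 1 in 20. Most lay in dim probe sets. Control replicate 3 was the highest control for Igfbp5 1396152_s_at (9.7 against 1.8 for the next, ratio 0.859), Igfbp6 1372168_s_at (41.1 against 31.9, ratio 0.719), Igfbp6 1387625_at (5.5 against 1.1, ratio 0.898) and Igf2 1388252_at (13.3 against 3.1, ratio 0.797). Over the probe sets below the level for testing with a single highest control, control replicate 3 was that control in 15.7%.

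Control replicate 5 was the highest control for Igf2 1371206_a_at (12.0 against 3.1, ratio 0.927) and for the summed suprachiasmatic markers (434 against 396, ratio 0.764), and the lowest for Gigyf2 (3.2 against 21.5, ratio 0.72). Among dehydrated pools, replicate 1 was highest for Igfbp5 1387347_at (1.9 against 1.3, ratio 0.75), replicate 3 highest for Igf2 1371206_a_at (3.8 against 2.5, ratio 0.722) and replicate 5 lowest for Eif4ebp1 (67.9 against 81.7, ratio 0.715). None of these was the called probe set of Igfbp5 or of Htra1.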

How the results depend on the processing

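Of 279 differences of the 15 tested member probe sets under 19 alternatives, 263 kept their direction and their side of the threshold and 16 changed sign without a call. Igfbp5 1370960_at was called in each of the 19, with adjusted p up to 0.00287 and log2 differences from -0.68 to -0.48, the smallest at a pseudocount of 64. With both tested Igfbp5 probe sets averaged the call was lost (-0.33, adjusted p = 0.155). Htra1 was called in each of the 19 too, with adjusted p from 0.00194 to 0.031. The sign changes outside left-out arrays were those of Igf1r 1368123_at, at 0.00 with quantile normalization and 0.03 with array weights. With single arrays left out the ranges were -0.09 to 0.09 for that probe set, -0.08 to 0.13 for Igfbp5 1387348_at, -0.13 to 0.08 for Igfbp6 1372168_s_at, -0.01 to 0.16 for Igfbp7 and -0.21 to 0.11 for Igf1 1388469_at. The count of member calls was 1 throughout. The count of partner and pathway calls, 1 as reported, was 2 with the stricter filter (60th percentile) and 4 with array weights, and 1 to 2 with arrays left out. The count over all probe sets, 108 as reported, was 64 without a filter, 45 without the variance trend, 201 with array weights and 46 to 148 with arrays left out, fewest without dehydrated replicate 3. The cause was not tested. Dim probe sets limit the rest: 8 of the 23 lay below the level for testing. No paired analysis was possible because the labels give the pools no shared replicate numbers.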

Other observations

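Summed markers of the other cells and regions overlapped between the groups. In dehydrated and control pools they were 12260 to 14055 and 13063 to 13841 for neurons, 16083 to 18481 and 16188 to 18520 for astrocytes, 985 to 1085 and 1062 to 1192 for microglia, 1648 to 1796 and 1374 to 1841 for endothelium, 315 to 419 and 338 to 390 for pericytes and smooth muscle, 1007 to 1048 and 1016 to 1260 for choroid plexus, and 1085 to 1481 and 1010 to 1434 for ependyma and tanycytes. For neighbouring regions they were 347 to 430 and 385 to 434 for the suprachiasmatic nucleus, 2509 to 3442 and 2307 to 3125 for the arcuate and ventromedial nuclei, 3276 to 5932 and 4059 to 6914 for the anterior, lateral and posterior hypothalamus, and 3233 to 4076 and 2705 to 4110 for thalamus and zona incerta. Overlap of sums does not mean equal sums. For choroid plexus and endothelium the overlap rested on control replicate 5, at 1016 and 1841. The remaining controls ran from 1130 to 1260 and from 1374 to 1579. The ratios of means were 0.881 for choroid plexus and 1.1 for endothelium. The anterior, lateral and posterior hypothalamus list had a ratio of means of 0.843 and a median log2 difference of -0.584, with 1 gene positive and 3 negative. Of its 4 tested probe sets 3 had an unadjusted p under 0.05, beside 12.7% of all tested. Groups did not overlap for 1, beside 3.36%, and 0 were called in limma.

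The second Igfbp5 probe set, 1387348_at, which did not separate the groups, varied oppositely to the astrocyte sum around the group means (r = -0.88) and to the suprachiasmatic sum (r = -0.89). Igf2 varied oppositely to the summed neuronal markers around the group means (r = -0.84) and Igfbp2 with the red cell sum (r = 0.76). All of these are over 10 arrays that share tissue dissection and scaling, among many such pairs, and are descriptions.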
